A study of Mus musculus with 12 samples.

Results

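De novo lipogenesis genes were followed in inguinal white adipose tissue (iWAT), a fat depot under the skin of the mouse. The 10 genes, Acly, Acss2, Me1, Acaca, Acacb, Fasn, Mlxipl, Srebf1, Thrsp and Pnpla3, were chosen by name for their place in fatty acid synthesis, with earlier results of these data known. All 10 were among the 14159 genes of the deposited table. All 10 also averaged 10 or more normalized counts per library, the filter that left 13404 genes for testing.

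Atf4WT mice carried Atf4 flox/flox alleles and no Cre, and Atf4AKO littermates carried the same alleles with Adipoq-Cre, all on a C57BL/6 background. Mice stayed at room temperature (RT, 22 °C) or spent 24 h in the cold, at 5 °C, and the polyA RNA of iWAT was sequenced in 3 biological replicates, numbered 0, 1 and 2, for each of the 4 groups. Adipoq-Cre acts in adipocytes, so Atf4 of the other cells of the depot was not targeted, and the age and sex of the sequenced mice are not stated. The libraries held 25719476 to 29105147 reads in genes, and a normalized count is the reads of a gene divided by the size factor of its library.

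In de novo lipogenesis, acetyl-CoA of the cytosol, cleaved from citrate or made from acetate, is carboxylated to malonyl-CoA and joined into palmitate at the expense of NADPH. The transcription factors SREBP1 and ChREBP turn the genes of the pathway on when insulin and glucose are plentiful. In thermogenic fat the synthesis and the oxidation of fatty acids are known to run side by side during cold exposure.

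The labels were checked first on Atf4, which stood at 5669, 4670 and 4107 normalized counts in Atf4WT RT replicates 0, 1 and 2, at 1594, 1470 and 1639 in Atf4AKO RT, at 7644, 7511 and 5756 in Atf4WT cold, and at 1578, 788 and 1180 in Atf4AKO cold. Every Atf4AKO library lay below every Atf4WT library of the same temperature. The log2 fold change of Atf4 between genotypes was -2.60 after cold (adjusted p = 0.000644) and -1.61 at RT (adjusted p = 0.0762, unadjusted p = 1.19e-05). Without Atf4AKO cold replicate 0 or 1, whose spread enters the shared model, the adjusted p of Atf4 at RT was 0.0168 or 0.00512. It was also under 0.05 in a model of the 2 groups alone (0.0149), with the replicate number as a block (0.049), in DESeq2 (1.56e-09) and without Atf4WT RT replicate 2, Atf4WT cold replicate 0 and Atf4AKO cold replicate 1 (0.0102). The Atf4 call after cold was lost in the model of 2 groups (log2 fold change again -2.60, adjusted p = 0.0598) and with the lymphocyte score, the mean log2 value of the B and T cell markers, as a covariate (log2 fold change -2.70, adjusted p = 0.249). Ucp1, the uncoupling protein of thermogenic fat, stood at 439.2, 685.2 and 204 normalized counts in Atf4WT RT, at 1097, 441.1 and 297.8 in Atf4AKO RT, at 94771, 73632 and 74684 in Atf4WT cold, and at 81033, 119558 and 90868 in Atf4AKO cold. All 6 cold libraries were far above all 6 RT libraries for Ucp1, with log2 fold changes of 7.67 in Atf4WT (adjusted p = 1.32e-05) and 7.51 in Atf4AKO (adjusted p = 8.69e-06).

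Markers of other cells set some libraries apart before any lipogenic gene is considered. The 10 white adipocyte markers, all listed and led by Fabp4, summed to 1008608 to 1510855 normalized counts in the 12 libraries. Fabp4 and Cfd made up most of this sum, and in limma 2 of the 10, named after their values were seen, passed in the Atf4WT cold response and both fell: Adipoq by 0.60 and Plin4 by 0.71 (log2, adjusted p = 0.0148 and 0.0285). In Atf4AKO they had -0.36 and -0.27 (adjusted p = 0.119 and 0.375). The Adipoq call was lost without Atf4WT cold replicate 2 (adjusted p = 0.0535) and with the lymphocyte score (0.455, log2 fold change -0.26). The Plin4 call was lost without Atf4WT RT replicate 0, 1 or 2 (0.0899, 0.0577 and 0.0533) or cold replicate 2 (0.0832, log2 fold change -0.44), in the model of 2 groups (0.0727), without the RT libraries numbered 2 (0.0622) and with the lymphocyte score (0.44, log2 fold change -0.44). In edgeR and in DESeq2 3 of the 10 fell in Atf4WT (Lep in addition) and 1 rose (Retn). In Atf4AKO 0 of the 10 passed in limma, but Adipoq fell in DESeq2, with 75th percentile scaling and with the lymphocyte score. Retn rose in Atf4AKO in edgeR, in DESeq2 and with the lymphocyte score, and Fabp4 rose there in DESeq2. The fall of Adipoq was therefore not shown to be confined to Atf4WT. The 8 beige adipocyte markers, all listed and led by Ucp1, summed to 6932 to 9714 at RT and to 107741 to 172132 after cold. Skeletal muscle markers (5 of 7 listed, Acta1 the most abundant, Ckm and Myh4 not listed) summed to 444.7, 848.8 and 81462 in Atf4WT RT, 180.3, 135.4 and 339.5 in Atf4AKO RT, 29046, 142.5 and 182.7 in Atf4WT cold, and 72.28, 3079 and 90.26 in Atf4AKO cold. Atf4WT RT replicate 2, Atf4WT cold replicate 0 and Atf4AKO cold replicate 1 therefore stood out for muscle transcripts, and member values are given with and without these 3 libraries where a call changed. B cell markers (9 of 10 listed, Cd79a the most abundant, Fcer2a not listed) summed to 121.3, 104.9 and 3745 in Atf4WT RT, 492.7, 93.6 and 180.9 in Atf4AKO RT, 3760, 7690 and 12824 in Atf4WT cold, and 326.3, 79.36 and 99.93 in Atf4AKO cold. T cell markers (10 of 10 listed, Lck the most abundant) summed to 293.1, 229 and 815.9 in Atf4WT RT, 418.3, 335.5 and 904.5 in Atf4AKO RT, 1022, 6739 and 7963 in Atf4WT cold, and 485.8, 197.3 and 275.1 in Atf4AKO cold. Lymphocyte transcripts summed over both lists were thus highest in the Atf4WT cold libraries. With the lymphocyte score as a covariate the cold response passed for 2 members in Atf4WT (Acacb and Thrsp) and for 4 in Atf4AKO (Acacb, Mlxipl, Pnpla3 and Thrsp), and the genotype comparisons for 0. Of the 13404 tested genes, 1793 passed in Atf4WT and 3571 in Atf4AKO with the score. Without the 3 libraries with muscle transcripts the cold response passed for 2 members in Atf4WT (Acacb and Mlxipl) and for 3 in Atf4AKO (Acacb, Mlxipl and Pnpla3). Of all genes, 3551 and 2219 passed in that fit.

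Other cell types were also summed. Fibroblast and progenitor markers (6 of 6 listed, led by Dcn) summed to 56305, 52463 and 67421 in Atf4WT RT, 73040, 45132 and 61145 in Atf4AKO RT, 42711, 14592 and 33316 in Atf4WT cold, and 31657, 11794 and 39200 in Atf4AKO cold. Macrophage markers (5 of 6 listed, led by C1qb, Cd68 not listed) summed to 15116, 12522 and 16420 in Atf4WT RT, 22863, 11546 and 14375 in Atf4AKO RT, 13513, 4380 and 12546 in Atf4WT cold, and 12111, 2329 and 14159 in Atf4AKO cold. Endothelium (5 of 5 listed, led by Pecam1) lay at 14499 to 20336, erythroid genes (2 of 5, led by Alas2; Hbb-bs, Hbb-bt and Hba-a1 not listed) at 217.9 to 473.8, and epithelium (3 of 12, led by Muc1; Krt5, Krt8, Krt14, Krt18, Epcam, Elf5, Csn3, Ltf and Esrp1 not listed) at 28.34 to 84.37. Lymph node stroma (3 of 6 listed, led by Cxcl13; Ccl19, Ccl21a and Glycam1 not listed) summed to 215, 154 and 450.6 in Atf4WT RT, 528, 126.5 and 151.2 in Atf4AKO RT, 725.2, 606.9 and 1623 in Atf4WT cold, and 229.6, 106.6 and 422.3 in Atf4AKO cold. In both genotypes replicate 1 was the lowest cold library for fibroblasts and progenitors, macrophages, erythroid genes, epithelium and lymph node stroma, and the highest for endothelium. In bulk RNA, fewer cells of a type and less RNA per cell cannot be told apart, and beyond the fits with the lymphocyte score and without the muscle libraries, the part of cell composition in the member values was not tested.

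The cold response asks how 24 h at 5 °C moved the lipogenic genes in each genotype. In Atf4WT, 3 of 10 members rose (Acacb, Mlxipl and Thrsp) and 0 fell at an adjusted p under 0.05 in limma, against 17.0% of all tested genes that rose and 14.9% that fell. The rule of the study, an unadjusted p under 0.05 and more than a 1.5-fold change, was applied here to limma and gave 4 members higher (Me1 in addition) and 0 lower, against 10.9% and 10.3% of all genes. In DESeq2 this rule also gave Acacb, Mlxipl, Me1 and Thrsp. In 6 members (Fasn, Acacb, Acly, Mlxipl, Me1 and Thrsp) every cold library lay above every RT library, as it did for 23.9% of all genes, and in 0 members every cold library lay below, as it did for 22.9%. The median log2 fold change of the members was 0.70, beside 0.00 for all tested genes. Without Atf4WT RT replicate 2 the member median was 0.44, and without the 3 libraries with muscle transcripts it was 0.39. In edgeR and in DESeq2 3 members were called as well, against 32.1% and 33.9% of all genes in either direction (31.9% in limma), and at an unadjusted p under 0.05 the counts were 4 in limma, 4 in edgeR and 5 in DESeq2, where 43.4%, 43.4% and 42.4% of all genes passed this mark.

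In Atf4AKO, 4 of 10 members rose with cold (Acacb, Mlxipl, Pnpla3 and Thrsp) and 0 fell, against 14.8% of all tested genes that rose and 11.0% that fell. The rule of the study, in limma and in DESeq2, gave the same 4 members higher and 0 lower, against 8.3% and 8.92% of all genes in limma. Those 4 members were also the ones in which every cold library lay above every RT library (21.7% of all genes), and 0 members lay wholly below (19.9%). The median log2 fold change of the members was 0.60, beside -0.03 for all tested genes, and it was 0.27 without Atf4AKO RT replicate 2 and 0.39 without Atf4AKO cold replicate 2. Both edgeR and DESeq2 called 4 members, against 25.8% and 28.3% of all genes in either direction (25.9% in limma). Without Atf4AKO RT replicate 0 or Atf4AKO cold replicate 1, the number of all genes called in Atf4AKO was 2208 or 2280, against 3467 with all libraries.

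**Figure D1:**
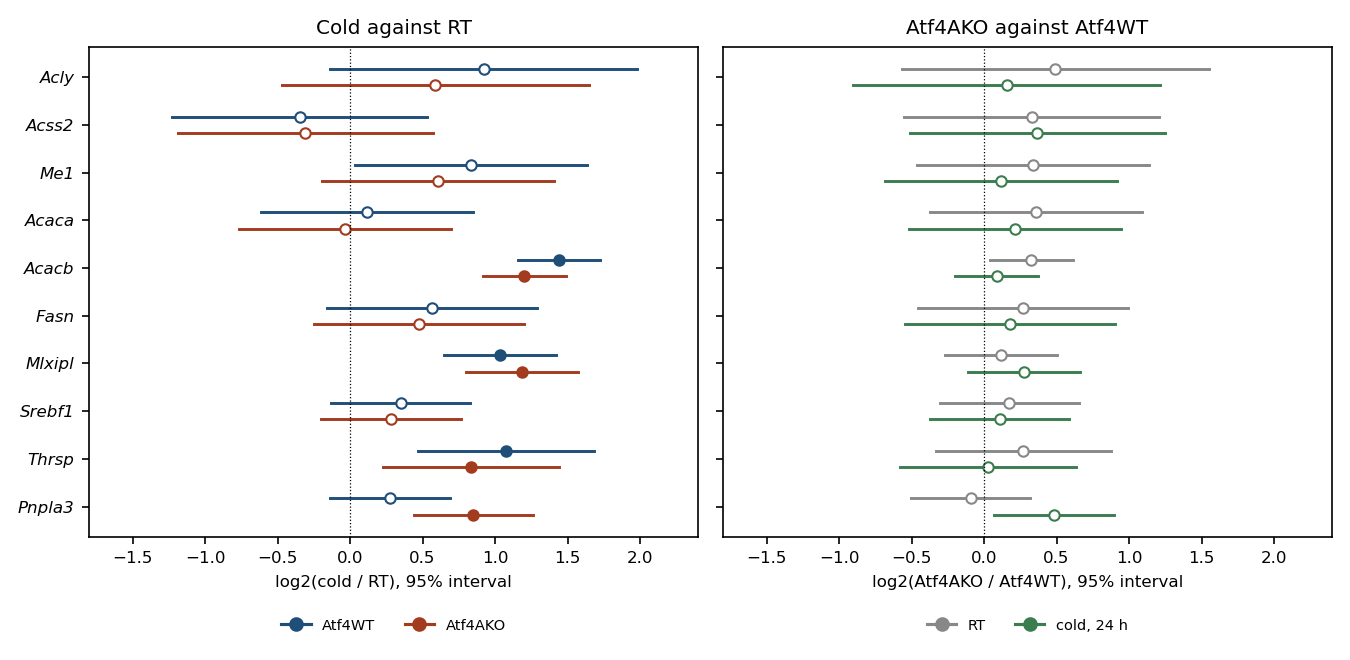
Log2 fold changes of the 10 members with 95% intervals, cold against RT in each genotype on the left and Atf4AKO against Atf4WT at each temperature on the right. Filled points passed an adjusted p under 0.05: Acacb, Mlxipl and Thrsp in both genotypes, and Pnpla3 in Atf4AKO, while no point on the right is filled.

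The intervals on the left of this plot are narrow for Acacb and Mlxipl and wide for Acly, Acss2 and Me1. For 6 of 10 members the 95% interval of the cold response spanned 0 in Atf4WT, and for 6 of 10 in Atf4AKO. The other 4 of 10 had an unadjusted p under 0.05, as did 43.4% of all genes in Atf4WT and 39.1% in Atf4AKO. Me1 in Atf4WT was the member that missed the adjusted threshold with an interval wholly above 0.

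Acly, the ATP citrate lyase that cleaves citrate to acetyl-CoA, stood at 51099, 55455 and 20744 normalized counts in Atf4WT RT replicates 0, 1 and 2, at 98658, 57447 and 28791 in Atf4AKO RT, at 68050, 55888 and 104882 in Atf4WT cold, and at 78737, 60427 and 116188 in Atf4AKO cold. Replicate 2 was the lowest RT library and the highest cold library of Acly in both genotypes. In Atf4WT the cold libraries all lay above the RT libraries, the lowest of them (55888) close to the highest RT library (55455), and in Atf4AKO the groups overlapped. The log2 fold change of Acly with cold was 0.92 in Atf4WT (95% interval -0.14 to 1.98, adjusted p = 0.167) and 0.59 in Atf4AKO (adjusted p = 0.393), neither past the threshold. Without RT replicate 2 of the genotype these Acly values were 0.47 and 0.12, and the Atf4AKO value was 1.01 without RT replicate 0 and 0.34 without cold replicate 2.

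Acss2, the cytosolic synthetase that makes acetyl-CoA from acetate, stood at 15973, 18732 and 8309 normalized counts in Atf4WT RT, at 26740, 19038 and 9662 in Atf4AKO RT, at 10879, 7262 and 15279 in Atf4WT cold, and at 13983, 11318 and 16361 in Atf4AKO cold. The groups overlapped in both genotypes, and replicate 2 was again the lowest at RT and the highest after cold. Acss2 was the member with a negative estimate in both cold responses, -0.35 in Atf4WT (95% interval -1.23 to 0.53, adjusted p = 0.535) and -0.31 in Atf4AKO (adjusted p = 0.599). With the lymphocyte score as a covariate, the Atf4WT estimate of Acss2 was 0.27, and without Atf4AKO RT replicate 0 the Atf4AKO estimate was 0.02. The Atf4WT estimate of Acss2 was -0.23, -0.11 and -0.70 without RT replicate 0, 1 or 2, and -0.07 and -0.61 without cold replicate 1 or 2. In Atf4AKO it was -0.72 without RT replicate 2 and -0.17 without cold replicate 1.

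Me1, the cytosolic malic enzyme that makes NADPH, stood at 48855, 58351 and 27423 normalized counts in Atf4WT RT, at 80480, 56869 and 34503 in Atf4AKO RT, at 85667, 60386 and 85261 in Atf4WT cold, and at 92710, 56456 and 106739 in Atf4AKO cold. All 3 Atf4WT cold libraries of Me1 lay above the 3 at RT, while in Atf4AKO cold replicate 1 lay among the RT values. The log2 fold change was 0.83 in Atf4WT (95% interval 0.03 to 1.63, unadjusted p = 0.0428, adjusted p = 0.103) and 0.61 in Atf4AKO (adjusted p = 0.241). Without RT replicate 2 of the genotype these Me1 values were 0.51 and 0.28. Me1 therefore met the rule of the study in Atf4WT and missed the adjusted threshold in both genotypes. It did not meet the rule in Atf4WT without Atf4WT RT replicate 0 or 2, Atf4WT cold replicate 0 or 2, Atf4AKO RT replicate 1 or Atf4AKO cold replicate 0, and it met the rule in Atf4AKO without Atf4AKO RT replicate 0 or cold replicate 1.

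Acaca and Acacb encode the 2 acetyl-CoA carboxylases. Acaca is the cytosolic enzyme that feeds fatty acid synthase, and Acacb is the enzyme at the mitochondrial surface whose malonyl-CoA restrains fatty acid entry through carnitine palmitoyltransferase. Acaca stood at 48180, 51483 and 25075 normalized counts in Atf4WT RT, at 66793, 58280 and 33743 in Atf4AKO RT, at 46383, 34524 and 49386 in Atf4WT cold, and at 54511, 35873 and 62697 in Atf4AKO cold. Its RT and cold libraries were interleaved in both genotypes. The log2 fold change of Acaca was 0.12 in Atf4WT (95% interval -0.61 to 0.85, adjusted p = 0.819) and -0.03 in Atf4AKO (95% interval -0.76 to 0.70, adjusted p = 0.95). The sign of Acaca hung on single libraries: it was -0.21 in Atf4WT without Atf4WT RT replicate 2, and 0.16, 0.07 and 0.20 in Atf4AKO without Atf4AKO RT replicate 0, RT replicate 1 or cold replicate 1. With any 1 library of the genotype left out, the Acaca estimate ran from -0.21 to 0.30 in Atf4WT (highest without RT replicate 1) and from -0.33 to 0.20 in Atf4AKO (lowest without RT replicate 2).

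Acacb stood at 7330, 8684 and 7400 normalized counts in Atf4WT RT, at 10387, 11227 and 7929 in Atf4AKO RT, at 20833, 20798 and 21791 in Atf4WT cold, and at 20551, 22144 and 24782 in Atf4AKO cold. All 6 cold libraries lay above all 6 RT libraries, and the 3 Atf4WT cold libraries were close to each other. The group means were 7805 ± 763 (SD, n = 3) in Atf4WT RT and 21141 ± 563 (SD, n = 3) in Atf4WT cold. In Atf4AKO the RT mean was 9848 ± 1714 and the cold mean 22492 ± 2137 (SD, n = 3 each). Acacb rose 2.72-fold with cold in Atf4WT (log2 fold change 1.44, 95% interval 1.16 to 1.73, adjusted p = 6.14e-05) and 2.3-fold in Atf4AKO (log2 fold change 1.20, 95% interval 0.92 to 1.49, adjusted p = 0.000164). It passed the threshold in both genotypes under all 24 alternative settings, with adjusted p of at most 0.00129 in Atf4WT and 0.0044 in Atf4AKO.

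The carboxylases were also compared within each library, as the ratio of Acacb to Acaca per kb of transcript. This ratio was 0.162, 0.18 and 0.314 in Atf4WT RT, 0.165, 0.205 and 0.25 in Atf4AKO RT, 0.478, 0.641 and 0.47 in Atf4WT cold, and 0.401, 0.657 and 0.421 in Atf4AKO cold. Every cold library had a higher ratio than every RT library, and Acaca remained the more abundant transcript per length in all 12. The means of the ratio were 0.218 ± 0.0832 and 0.53 ± 0.0967 in Atf4WT at RT and after cold, and 0.207 ± 0.0423 and 0.493 ± 0.142 in Atf4AKO (SD, n = 3 each).

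Fasn, the fatty acid synthase that builds palmitate, stood at 299015, 341113 and 188691 normalized counts in Atf4WT RT, at 400750, 348632 and 240086 in Atf4AKO RT, at 388712, 360249 and 446168 in Atf4WT cold, and at 470970, 358642 and 536547 in Atf4AKO cold. It held 0.754% to 1.85% of all reads of a library and ranked 5 of 14159 genes by mean normalized count, a rank not corrected for transcript length. The Atf4WT cold libraries of Fasn all lay above the RT libraries, and in Atf4AKO cold replicate 1 (358642) lay below RT replicate 0 (400750). The log2 fold change of Fasn was 0.57 in Atf4WT (95% interval -0.16 to 1.29, adjusted p = 0.212) and 0.48 in Atf4AKO (adjusted p = 0.309), so neither passed the test. Without RT replicate 2 of the genotype the Fasn values were 0.31 and 0.27.

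**Figure D2:**
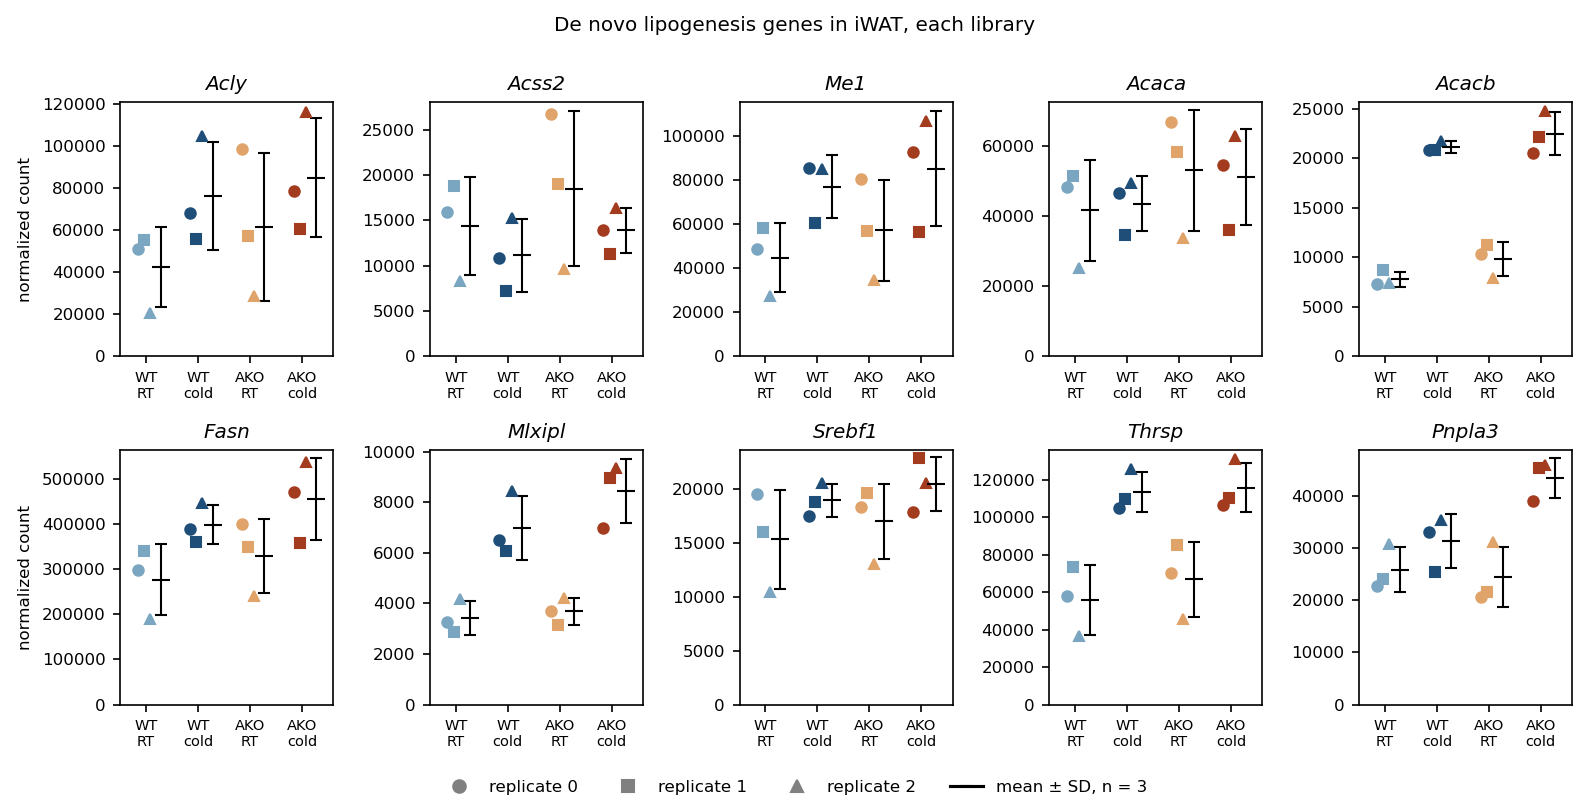
Normalized counts of the 10 members (y axis, starting at 0) in each library of the 4 groups, with the mean and SD of 3 replicates beside the points. Acacb separates the cold from the RT libraries in both genotypes, while the libraries of Acaca and Acss2 overlap.

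The plot of the members by library orders the genes by role, from acetyl-CoA supply to the lipid droplet protein Pnpla3. The triangles, replicate 2, lie at the bottom of the RT groups for most enzymes and at the top of the cold groups.

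Mlxipl encodes ChREBP, the carbohydrate response element binding protein that acts with its partner Mlx. It stood at 3248, 2854 and 4152 normalized counts in Atf4WT RT, at 3700, 3155 and 4227 in Atf4AKO RT, at 6490, 6057 and 8438 in Atf4WT cold, and at 6988, 8940 and 9369 in Atf4AKO cold. All 6 cold libraries of Mlxipl lay above all 6 RT libraries. Its means were 3418 ± 665 and 6995 ± 1268 in Atf4WT at RT and after cold, and 3694 ± 536 and 8432 ± 1269 in Atf4AKO (SD, n = 3 each). Mlxipl rose 2.05-fold in Atf4WT (log2 fold change 1.04, 95% interval 0.65 to 1.42, adjusted p = 0.00172) and 2.28-fold in Atf4AKO (log2 fold change 1.19, 95% interval 0.80 to 1.58, adjusted p = 0.000977). With the lymphocyte score as a covariate the Atf4WT value was 0.66 with adjusted p = 0.129, the highest of 24 alternatives that otherwise all kept the call, and the Atf4AKO call was kept in all 24. A count per gene cannot separate the ChREBP isoforms that start at different exons.

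Srebf1 encodes SREBP1, the sterol regulatory element binding protein that acts on many lipogenic promoters. It stood at 19593, 16057 and 10432 normalized counts in Atf4WT RT, at 18399, 19649 and 13040 in Atf4AKO RT, at 17483, 18843 and 20598 in Atf4WT cold, and at 17930, 22966 and 20560 in Atf4AKO cold. RT and cold libraries of Srebf1 overlapped in both genotypes, with replicate 2 the lowest at RT. The log2 fold change was 0.35 in Atf4WT (adjusted p = 0.245) and 0.28 in Atf4AKO (adjusted p = 0.366). Without RT replicate 2 of the genotype the Srebf1 values were 0.09 and 0.10, and without RT replicate 0 the Atf4WT value was 0.55. The SREBP1a and SREBP1c transcripts are counted together here.

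Thrsp, known as Spot 14, encodes a small protein of lipogenic tissues that responds to thyroid hormone and binds the carboxylase regulator Mid1ip1. It stood at 58084, 73238 and 36332 normalized counts in Atf4WT RT, at 69967, 85154 and 45538 in Atf4AKO RT, at 104935, 109759 and 125600 in Atf4WT cold, and at 106284, 110076 and 130904 in Atf4AKO cold. All 6 cold libraries lay above all 6 RT libraries, and the RT libraries were the more scattered. The means were 55884 ± 18551 and 113431 ± 10811 in Atf4WT at RT and after cold, and 66887 ± 19987 and 115755 ± 13256 in Atf4AKO (SD, n = 3 each). Thrsp rose in Atf4WT (log2 fold change 1.08, 95% interval 0.47 to 1.68, adjusted p = 0.0132) and in Atf4AKO (1.78-fold, log2 fold change 0.83, 95% interval 0.23 to 1.44, adjusted p = 0.046).

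The Atf4AKO call of Thrsp lay close to the threshold and was kept in 11 of 24 alternatives, with adjusted p from 0.00894 to 0.153. It was lost in 9 of the 12 fits that left out 1 library. The adjusted p of Thrsp was 0.0624 without Atf4WT RT replicate 0, 0.0879 without Atf4AKO RT replicate 0 and 0.153 without Atf4AKO RT replicate 2. Among cold libraries it was 0.0579, 0.0591 and 0.0537 without Atf4WT replicate 0, 1 or 2, and 0.0686, 0.092 and 0.124 without Atf4AKO replicate 0, 1 or 2. It was 0.0506 with no filter, 0.0649 in the model of 2 groups, 0.0532 without the RT libraries numbered 2, and 0.0676 (log2 fold change 0.87) without the 3 libraries with muscle transcripts. In Atf4WT the call of Thrsp was lost in 1 of 24 alternatives, without the 3 libraries with muscle transcripts, where its log2 fold change was 0.85 with adjusted p = 0.0721 (0.000371 to 0.0721 over the alternatives). The log2 fold changes of Thrsp were positive in all of these fits, and by the rule of the study Thrsp was lost in Atf4AKO without Atf4AKO RT replicate 2.

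Pnpla3 encodes a lipid droplet protein of the patatin family, known as a target of SREBP1 and ChREBP. It stood at 22820, 24072 and 30878 normalized counts in Atf4WT RT, at 20684, 21654 and 31241 in Atf4AKO RT, at 33218, 25482 and 35447 in Atf4WT cold, and at 39118, 45436 and 46111 in Atf4AKO cold. The 3 Atf4AKO cold libraries lay above the other 9, and in Atf4WT the cold replicate 1 (25482) lay below RT replicate 2 (30878). The means were 25923 ± 4336 and 31382 ± 5230 in Atf4WT at RT and after cold, and 24527 ± 5835 and 43555 ± 3857 in Atf4AKO (SD, n = 3 each). Pnpla3 rose 1.8-fold with cold in Atf4AKO (log2 fold change 0.85, 95% interval 0.44 to 1.26, adjusted p = 0.00758), a call kept in all 24 alternatives with adjusted p of at most 0.035. In Atf4WT its log2 fold change was 0.27 (95% interval -0.14 to 0.69, adjusted p = 0.287), with 0.42 without cold replicate 1 and 0.18 without cold replicate 2. With the lymphocyte score the Atf4WT value of Pnpla3 was 0.07. The test of the difference between the cold responses gave 0.58 for Pnpla3 (SE 0.27, 95% interval -0.01 to 1.16, unadjusted p = 0.0522, adjusted p = 0.734), so the responses of the genotypes were not shown to differ.

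The score lay at 7.36, 9.35 and 9.82 in Atf4WT cold, at 7.20 in Atf4WT RT replicate 2 and at 3.58 to 5.31 in the other 8 libraries, so it moves with the Atf4WT cold group. With this lymphocyte score as a covariate, the Atf4WT cold response was 1.61 for Acly (0.92 with no covariate), 1.42 for Me1 (0.83), 0.99 for Fasn (0.57), 0.90 for Srebf1 (0.35), 0.75 for Acaca (0.12) and 0.27 for Acss2 (-0.35), with adjusted p from 0.0796 for Srebf1 to 0.813 for Acss2. Thrsp had 1.71 (adjusted p = 0.0176) and Acacb 1.61 (adjusted p = 0.00118), both still past the threshold. The standard errors were wider with the score, 0.78 against 0.48 for Acly and 0.30 against 0.22 for Srebf1. In Atf4AKO the Acaca estimate was -0.14 with the score. Without the muscle libraries the Atf4WT values were 0.52 for Acly, 0.43 for Me1, 0.33 for Fasn, 0.15 for Srebf1, -0.27 for Acaca and -0.72 for Acss2, and in Atf4AKO Acaca had 0.20 and Acss2 -0.17. In edgeR and DESeq2 Acaca had 0.05 and 0.06 in Atf4WT, and in DESeq2 -0.05 in Atf4AKO.

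The order of the replicates was shared by many members. Replicate 2 was the lowest library for 7 of 10 members in Atf4WT RT (Acly, Acss2, Me1, Acaca, Fasn, Srebf1 and Thrsp) and for 8 of 10 in Atf4AKO RT (Acacb in addition). In the same RT libraries replicate 2 was the highest for Mlxipl and Pnpla3. After cold, replicate 2 was the highest library for 9 of 10 members in both genotypes, with Me1 the exception in Atf4WT and Srebf1 in Atf4AKO. Cold replicate 1 was the lowest for 8 members in Atf4WT and for 5 in Atf4AKO. Atf4WT RT replicate 2 also held the highest muscle marker sum, while Atf4AKO RT replicate 2 did not stand out on that list (339.5), and what set these libraries apart was not tested. Across genotypes and temperatures, libraries with the same number correlated at -0.189 to 0.389 over all tested genes once group means were removed. Those numbered 1 correlated with each other at 0.179 to 0.389. The numbers were not used as pairs in the main fit.

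**Figure D3:**
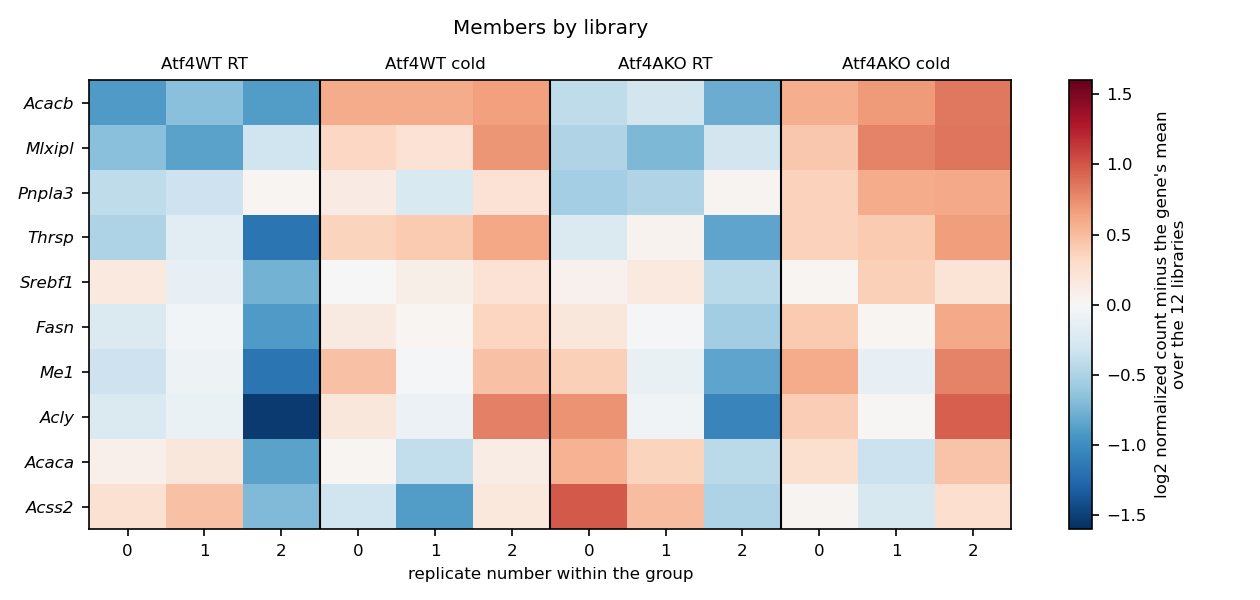
Log2 normalized count of each member (y axis) minus its mean over the 12 libraries, shown as color for each library (x axis, replicate number within the group). Replicate 2 is low at RT for Acly, Me1, Fasn, Acaca, Acss2, Srebf1 and Thrsp, and Acacb and Mlxipl are low at RT and high after cold in every library.

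The color map shows Acly with the widest swing. The SD of log2 Acly among replicates was 0.89 in Atf4AKO RT, above that of 98.0% of tested genes, and 0.79 in Atf4WT RT, above that of 96.4%. Acacb in Atf4WT cold had an SD of 0.04, above that of 5.0% of tested genes. The summed share of the 10 members in all reads was 2.15%, 2.37% and 1.44% in Atf4WT RT, 2.94%, 2.39% and 1.75% in Atf4AKO RT, 2.81%, 2.58% and 3.56% in Atf4WT cold, and 3.17%, 2.5% and 3.7% in Atf4AKO cold. This sum was lowest in replicate 2 at RT and highest in replicate 2 after cold in both genotypes, and Fasn was the largest part of it.

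The genotype comparisons ask whether loss of Atf4 in adipocytes shifted the lipogenic genes at either temperature. After cold, 0 of 10 members differed between Atf4AKO and Atf4WT at an adjusted p under 0.05 in limma, against 0.0298% of all tested genes. Both edgeR and DESeq2 also called 0 members, against 0.0224% and 4.17% of all genes. At an unadjusted p under 0.05, 1 member, Pnpla3, differed in limma, against 11.7% of all genes, and 1 differed in edgeR and in DESeq2, against 13.0% and 11.9%. Pnpla3 was also the 1 member whose Atf4AKO cold libraries all lay above the Atf4WT cold libraries (8.68% of all genes), and 0 members lay wholly below (7.84%). Its log2 fold change was 0.48 (SE 0.19, 95% interval 0.07 to 0.90, unadjusted p = 0.0254, adjusted p = 0.313), and 0.74 with the lymphocyte score (adjusted p = 0.999). The smallest estimate was that of Thrsp, 0.03 (adjusted p = 0.981), which was -0.03 without Atf4WT cold replicate 0 and -0.06 without Atf4AKO cold replicate 2, and at most 0.10 (without Atf4WT cold replicate 2) with 1 library left out, and -0.75 with the lymphocyte score. All 10 estimates were above 0, with a median of 0.17 beside 0.05 for all tested genes, and 9 of the 10 intervals spanned 0. The member median was 0.08 without Atf4WT cold replicate 1, 0.29 without Atf4WT cold replicate 2, 0.36 without Atf4AKO cold replicate 1 and 0.05 without Atf4AKO cold replicate 2. With 1 library left out 7 to 10 of the estimates were above 0, and with the lymphocyte score 2 were, with a median of -0.48. Without the muscle libraries 9 were above 0, with a median of 0.32. The number of all genes called after cold was 4 with all libraries, 146 without Atf4WT RT replicate 2, 515 without Atf4WT cold replicate 0, and 2 without Atf4WT cold replicate 1, Atf4AKO cold replicate 0 or Atf4AKO cold replicate 2, while 0 members were called in each of these fits.

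At RT, 0 of 10 members differed between genotypes at an adjusted p under 0.05 in limma, against 0.00746% of all tested genes, and edgeR and DESeq2 called 0 members, against 0.00746% and 0.0283%. Acacb was the 1 member with an unadjusted p under 0.05, against 1.53% of all genes, and 1 member passed this mark in edgeR and in DESeq2, against 2.18% and 1.98%. Its log2 fold change was 0.32 (unadjusted p = 0.0294, adjusted p = 1.0). In 0 members did the Atf4AKO RT libraries all lie above (3.32% of all genes) or all lie below (2.98%) the Atf4WT RT libraries. The largest estimate was that of Acly, 0.49, with replicates from 28791 to 98658 in Atf4AKO. This Acly estimate was 0.75 without Atf4WT RT replicate 1, 0.04 without Atf4WT RT replicate 2, 0.06 without Atf4AKO RT replicate 0 and 0.95 without Atf4AKO RT replicate 2. The lowest was that of Pnpla3, -0.09, which was 0.04 without Atf4WT RT replicate 2, 0.02 without Atf4AKO RT replicate 0 and -0.28 without Atf4AKO RT replicate 2. The median of the members was 0.30 beside 0.01 for all tested genes, and 9 of 10 intervals spanned 0. This member median was 0.02 without Atf4WT RT replicate 2, 0.47 without Atf4WT RT replicate 1, 0.11 without Atf4AKO RT replicate 0 and 0.50 without Atf4AKO RT replicate 2. With all libraries 1 gene was called at RT, and 2 were called without Atf4WT RT replicate 2 or Atf4AKO cold replicate 1, and 3 without Atf4AKO cold replicate 0.

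The difference of the cold responses was tested directly. It passed for 0 of 10 members in limma, against 0.0% of all tested genes, with 0 members in edgeR (0.0% of all genes) and 0 in DESeq2 (0.904%). At an unadjusted p under 0.05 it passed for 0 members in limma, against 6.92% of all genes, for 0 in edgeR (7.18%) and for 1 in DESeq2 (Pnpla3, 7.01%). The estimates ran from -0.33 for Acly (95% interval -1.83 to 1.16) to 0.58 for Pnpla3, and all 10 intervals spanned 0. The Acly estimate was 0.12 without Atf4WT RT replicate 2, 0.09 without Atf4AKO RT replicate 0 and -0.80 without Atf4AKO RT replicate 2, and it was -1.14 with the lymphocyte score and 0.28 without the muscle libraries. The member median was -0.12 with 3 of 10 above 0, beside 0.03 for all tested genes. It was 0.14 (9 above 0) without Atf4WT RT replicate 2, 0.07 (7) without Atf4AKO RT replicate 0, 0.06 (6) without Atf4AKO cold replicate 1 and -0.38 (2) without Atf4AKO RT replicate 2, and with 1 library left out it stayed between -0.38 and 0.14. With the lymphocyte score it was -0.69 (2 above 0), and without the muscle libraries 0.30 (8 above 0). Without Atf4WT cold replicate 0 the test called 64 of all genes and 0 members.

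Levels of different members can be compared only per length, for which the transcript the table of genes lists was found in the annotation for 8 members, not for Mlxipl and Srebf1. Thrsp was the most abundant of the 8 per kb in every group, at 43762 ± 14527 normalized counts per kb in Atf4WT RT and 90646 ± 10381 in Atf4AKO cold (SD, n = 3 each). Fasn came next with 27490 ± 7832 and 45312 ± 8952, and Pnpla3 after it with 19744 ± 3303 and 33172 ± 2938, in the same groups. Me1 had 13648 ± 4818 per kb in Atf4WT RT and 25943 ± 7892 in Atf4AKO cold, and Acly 9587 ± 4272 and 19231 ± 6422. Acss2 (4892 ± 1843 in Atf4WT RT) and Acaca (4607 ± 1594) stood in the opposite order by mean after cold, and Acacb was the lowest of the 8 in every group, at 920 ± 89.9 in Atf4WT RT and 2652 ± 252 in Atf4AKO cold. Pnpla3 and Me1, Me1 and Acly, and Acss2 and Acaca overlapped per kb in all 4 groups, so their order does not exceed the spread of replicates. Thrsp and Fasn overlapped per kb at RT and not after cold, as did Acly with Acss2 and with Acaca. Fasn also overlapped with Pnpla3 in Atf4WT RT and with Me1 in Atf4AKO RT, Pnpla3 with Acly in Atf4AKO RT and Atf4WT cold, and Acacb with Acss2 in Atf4WT cold.

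**Figure D4:**
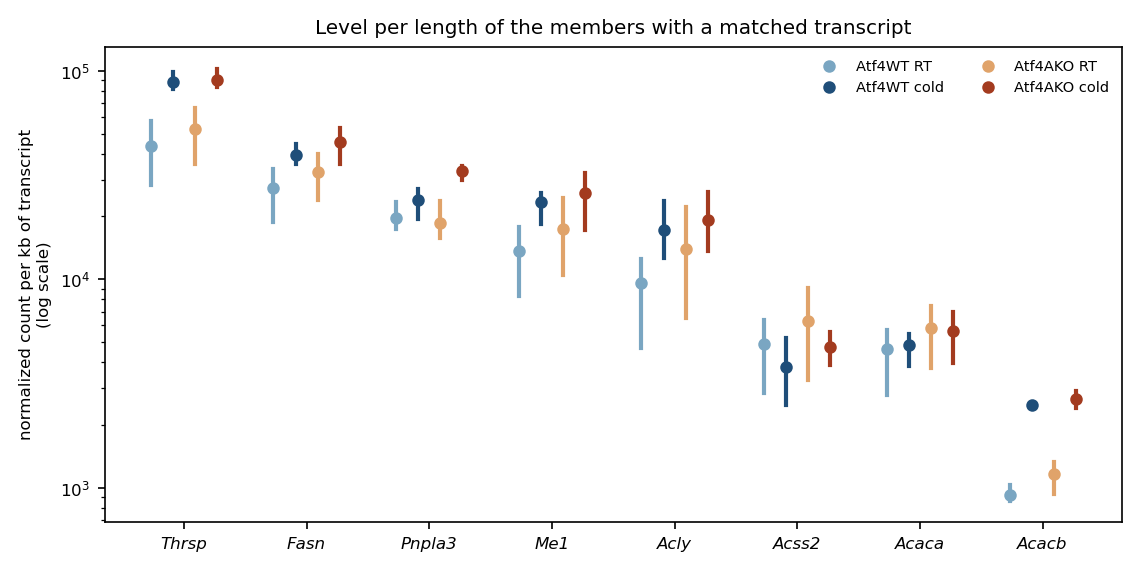
Normalized counts per kb of transcript (y axis, log scale) for the 8 members with a matched transcript, as the mean (point) and the range (line) of 3 replicates in each group. Thrsp is highest and Acacb lowest by mean in all 4 groups.

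The plot per kb also shows how far the groups of each member lie apart. The Acacb lines of RT and cold are separated, while those of Acss2 and Acaca lie over each other.

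Genes around the pathway were read from lists chosen by function, and the counts stand against 17.0% of all tested genes that rose and 14.9% that fell in Atf4WT, and 14.8% and 11.0% in Atf4AKO. Whether a list differs from these shares was not tested. Of 6 genes that supply citrate and NADPH, 1 rose with cold in both genotypes and 0 fell. It was Mdh1, the cytosolic malate dehydrogenase that precedes Me1, with log2 fold changes of 1.09 in Atf4WT (adjusted p = 0.000545) and 1.08 in Atf4AKO (adjusted p = 0.000627), while Slc25a1, the citrate carrier, had 0.28 and -0.05 (adjusted p = 0.351 and 0.874), the latter 0.08 without Atf4AKO RT replicate 0 and 0.11 without Atf4AKO cold replicate 1, and the former 0.06 without Atf4WT RT replicate 2 and -0.03 without the muscle libraries. Pgd, which makes NADPH, had 0.62 and 0.55 (adjusted p = 0.0773 and 0.126) and met the rule of the study in Atf4WT. It passed there in DESeq2 (adjusted p = 0.0449), without Atf4AKO RT replicate 2 (0.0356) and just under the threshold without Atf4WT RT replicate 1 (0.05 when rounded). Without RT replicate 2 of the genotype its values were 0.39 and 0.28. G6pdx had 0.30 and 0.44 (adjusted p = 0.194 and 0.0773), passed in Atf4AKO without Atf4WT RT replicate 2 (0.0493), and had 0.15 and 0.25 without RT replicate 2 of the genotype. Malonyl-CoA, the product of Acaca and Acacb, has 2 further genes on the lists, and 2 of 2 rose in both genotypes. Mlycd, the decarboxylase that removes malonyl-CoA, rose by 0.70 and 0.75 (log2, adjusted p = 0.0106 and 0.00902). Mid1ip1, the carboxylase activator related to Thrsp, rose by 1.13 and 1.20 (adjusted p = 0.0381 and 0.036). The Mid1ip1 call was lost without Atf4WT RT replicate 2, Atf4WT cold replicate 1 or Atf4WT cold replicate 2 in Atf4WT (adjusted p 0.127, 0.0752 and 0.13), with a log2 fold change of 0.73 in the first of these fits, and also in the model of 2 groups (0.0544) and without the RT libraries numbered 2 (0.0859). In Atf4AKO it was lost without RT replicate 0 or 2 or cold replicate 1 or 2 (adjusted p 0.0597, 0.12, 0.131 and 0.0646).

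Among 14 regulators of SREBP1 and ChREBP, the products of Srebf1 and Mlxipl, 4 rose and 2 fell in Atf4WT, and 4 rose and 1 fell in Atf4AKO. Ppargc1b, a coactivator of SREBP1, rose by 1.62 and 2.15 (log2, adjusted p = 0.000367 and 8.03e-05), and Mlx, the partner of ChREBP, by 1.19 and 1.11 (adjusted p = 0.00265 and 0.00438). Nr1h3 (LXR alpha) rose by 0.45 and 0.47, calls that were each lost when 1 of 3 libraries was left out (adjusted p up to 0.0651 and 0.0738): RT replicate 2, cold replicate 0 or cold replicate 1 in Atf4WT, and RT replicate 0, RT replicate 2 or cold replicate 1 in Atf4AKO. The Nr1h3 calls were also lost without the muscle libraries (adjusted p 0.136 and 0.0688) and without the RT libraries numbered 2 (0.0575 and 0.0522). Insig1 was the remaining gene that rose in both genotypes and Rxra the gene that fell in both, each named after its values were seen. Insig1 had 0.69 in Atf4WT and 0.86 in Atf4AKO (log2, adjusted p = 0.0429 and 0.0209). Rxra had -0.50 and -0.46 (adjusted p = 0.027 and 0.0451). Insig1 stood at 6963, 11771 and 7824 normalized counts in Atf4WT RT and at 11819, 11861 and 19394 in Atf4WT cold, where replicate 2 was the highest. The Insig1 and Rxra calls were not followed through the alternatives. Mbtps1, a protease that cleaves SREBP1, fell in Atf4WT. This call was lost without Atf4WT RT replicate 0 or 1 or cold replicate 0 or 1 (adjusted p 0.0588 to 0.0973) and without the muscle libraries (0.0627). It was also lost in the model of 2 groups (0.0505) and with the lymphocyte score (0.452, log2 fold change -0.14 against -0.25). With 75th percentile scaling Mbtps1 also passed in Atf4AKO (0.0175). Of the glucose entry genes and targets of ChREBP, the product of Mlxipl, 2 of 5 listed rose in both genotypes and 0 fell (Pklr was not listed). Gpd1 rose by 1.16 and 1.06 (adjusted p = 0.0109 and 0.0199), and Hk2 by 0.80 and 0.84 (adjusted p = 0.0289 and 0.0275). The Gpd1 call was lost in Atf4AKO without RT replicate 2 or cold replicate 2 (adjusted p 0.0662 and 0.068), and in Atf4WT without the 3 libraries with muscle transcripts (0.0711). Hk2 lost its call without RT replicate 0, RT replicate 2, cold replicate 1 or cold replicate 2 in either genotype (adjusted p 0.0625 to 0.109 in Atf4WT and 0.0616 to 0.102 in Atf4AKO), without the RT libraries numbered 2 (0.102 and 0.0594), and in Atf4WT in the model of 2 groups (0.0602, log2 fold change again 0.80) and with the lymphocyte score (0.0648, log2 fold change 1.21). Slc2a4 had 0.32 and 0.41, neither past the threshold, and 0.07 and 0.20 without RT replicate 2 of the genotype. In Atf4WT the Slc2a4 value was 0.95 with the lymphocyte score and 0.12 without the muscle libraries. Txnip, a ChREBP target, had -0.55 and -0.54 (adjusted p = 0.311 and 0.342), neither past the threshold. Without RT replicate 2 of the genotype the Txnip values were -0.14 and -0.19, without Atf4WT RT replicate 0 the Atf4WT value was -0.91, and the Atf4AKO value was -0.82 without RT replicate 1 and -0.26 without cold replicate 1.

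AMPK, the kinase that phosphorylates the products of Acaca and Acacb, is represented by 6 genes of its subunits and by Stk11, which encodes LKB1, a kinase upstream of AMPK. Of these 7 genes, 4 rose in both genotypes (Prkaa2, Prkab1, Prkag1 and Stk11). Prkaa2 lost its call in Atf4WT without RT replicate 0, 1 or 2 or cold replicate 0 or 2 (adjusted p 0.0548 to 0.0866), and Stk11 lost its call in Atf4AKO without RT replicate 0, RT replicate 2 or cold replicate 1 (0.051 to 0.0966). Without the muscle libraries Prkaa2 and Prkag1 lost their calls in Atf4WT (0.113 and 0.081) and Stk11 in Atf4AKO (0.141). Prkaa2 in Atf4WT was also lost with the lymphocyte score (0.125, log2 fold change 0.60 against 0.47), and Stk11 in Atf4AKO in the model of 2 groups (0.0721) and without the RT libraries numbered 2 (0.0605). Prkab1 rose by 0.71 and 0.73 (log2, adjusted p = 0.00127 and 0.00143), and Prkab2, named after its values were seen, fell in Atf4WT. Prkab2 stood at 484.2, 469.6 and 839.1 normalized counts in Atf4WT RT and at 422.2, 296.6 and 310.8 in Atf4WT cold. Its highest value was thus in RT replicate 2, the library with the most muscle transcripts, and the Prkab2 call was not followed through the alternatives. Of 10 genes that use palmitate, the product of Fasn, 5 rose and 0 fell in both genotypes, among them Agpat2 (1.63 and 1.62, adjusted p = 0.000633 and 0.000745), Dgat1 (0.91 and 0.83, adjusted p = 0.00251 and 0.00477) and Gpam (1.09 and 0.95, adjusted p = 0.00257 and 0.00619). Elovl5 rose by 0.39 and 0.28 (adjusted p = 0.00483 and 0.0301). Its Atf4AKO call was lost without RT replicate 0, RT replicate 1, cold replicate 1 or cold replicate 2 (0.0778 to 0.106), without the muscle libraries (0.115), with 75th percentile scaling (0.0831) and in the model of 2 groups (0.0763), and its Atf4WT call with the lymphocyte score (0.0553, log2 fold change 0.45). Fatty acid oxidation, which malonyl-CoA of Acacb restrains at its entry, had 9 of 11 genes that rose in both genotypes. In Atf4WT 1 fell (Cpt1a, named after its values were seen), against 0 in Atf4AKO. Cpt1a had -0.41 in Atf4WT and -0.35 in Atf4AKO (log2, adjusted p = 0.0299 and 0.0619). The difference of its cold responses was 0.06 (adjusted p = 0.999), so its fall was not shown to be confined to Atf4WT. The Cpt1a call was not followed through the alternatives. Cpt1b, the muscle-type carnitine palmitoyltransferase, rose by 2.91 and 3.79 (adjusted p = 3.79e-05 and 8.69e-06), and Acadvl by 1.23 and 1.14 (adjusted p = 0.000177 and 0.000343).

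Thyroid hormone acts on Thrsp, and of the 3 genes listed for it Dio2, the deiodinase that activates the hormone, rose 59.1-fold and 64-fold (adjusted p = 0.000132 and 0.000139). Its RT values were scattered, 273.8, 89.5 and 36.16 normalized counts in Atf4WT and 89.24, 291.7 and 83.5 in Atf4AKO. The fold of Dio2 was 99.3 without Atf4WT RT replicate 0, 36.5 without Atf4WT RT replicate 2 and 95.7 without Atf4AKO RT replicate 1, and in Atf4WT it was 232 with the lymphocyte score and 32.6 without the muscle libraries. Thra fell by 0.69 in Atf4WT and by 0.53 in Atf4AKO (adjusted p = 0.000819 and 0.0039). Thrb rose by 0.42 in Atf4AKO (adjusted p = 0.0299), a call lost without Atf4AKO RT replicate 2, cold replicate 1 or cold replicate 2 (0.0942, 0.0894 and 0.0912), without the muscle libraries (0.0893), without the RT libraries numbered 2 (0.0829) and in the model of 2 groups (0.0712). In Atf4WT it had 0.09 (adjusted p = 0.597), with 0.03 without RT replicate 2, 0.02 without cold replicate 0 and -0.05 without the muscle libraries. Of 7 relatives of the members, Mid1ip1 was the 1 that rose in both genotypes and 0 fell. Me3 had 0.42 and 0.44 (adjusted p = 0.5 and 0.487), but in Atf4WT 1.03 (adjusted p = 0.0264) without Atf4WT RT replicate 2, 0.21 without RT replicate 0, 0.01 without RT replicate 1 and 0.27 without cold replicate 0. Pnpla2, the adipose triglyceride lipase of the family of Pnpla3, had 0.32 and 0.51 (adjusted p = 0.267 and 0.099; 0.0294 for Atf4AKO in DESeq2), with 0.195 in Atf4WT without cold replicate 1 and 0.33 in Atf4AKO without RT replicate 0. With the lymphocyte score the Atf4WT value was 1.12 for Pgd, 0.63 for G6pdx, 0.73 for Slc25a1, 1.06 for Mlycd, 1.92 for Mid1ip1, 0.83 for Nr1h3, 0.56 for Prkag1, 1.86 for Gpd1, -1.51 for Txnip, 0.42 for Thrb, 0.68 for Pnpla2 and -0.40 for Me3, and Me3 had 0.11 in edgeR and 0.15 in DESeq2. In no list did the difference between the genotypes' cold responses pass for any gene in limma. Of all genes, 0 passed an adjusted p under 0.05 in limma, 0 in edgeR and 128 in DESeq2, and 928, 963 and 993 had an unadjusted p under 0.05.

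**Figure D5:**
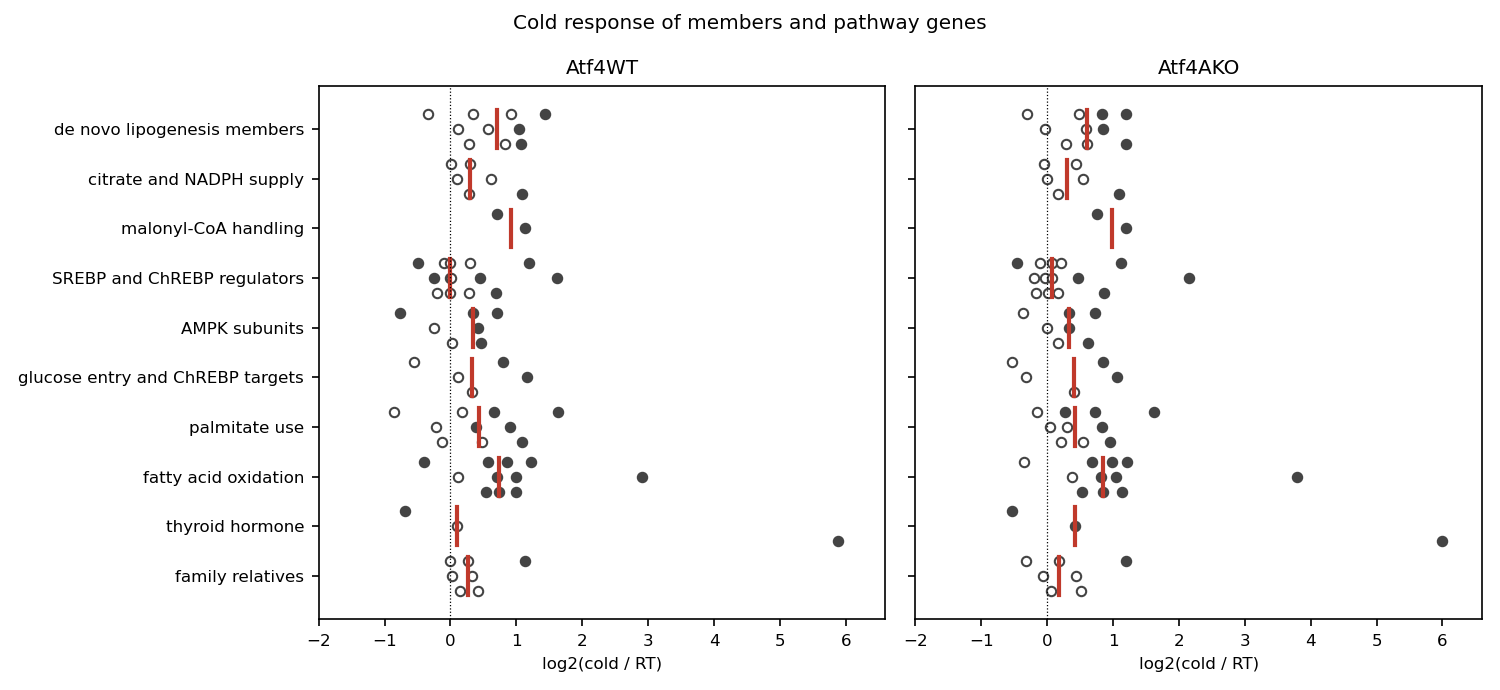
Log2 fold changes with cold in Atf4WT (left) and Atf4AKO (right) for the members and the genes of each list (1 point per gene, filled when adjusted p was under 0.05, red bar at the median of the list). The point at the far right of the thyroid hormone list is Dio2.

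For each member the tested gene outside the list with the most similar profile over the 12 libraries was found, by the root mean square (RMS) difference of log2 values centered on each gene's mean, among 13394 genes. The nearest was Gbe1 for Fasn (RMS 0.0853), Cox10 for Acacb (0.0881), Grk3 for Mlxipl (0.106), Nubp2 for Srebf1 (0.11) and Sbk1 for Thrsp (0.121). Tkt was the nearest for Acaca (0.151), Gapdhs for Pnpla3 (0.152), Sorl1 for Me1 (0.166), Adcy10 for Acly (0.216) and Oscp1 for Acss2 (0.265). Distances between members were measured the same way: Acss2 was nearer to Acaca (0.258) than to any gene outside the list, Acly was nearer to 1 outside gene than to Me1 (0.223), and Pnpla3 to 1660 outside genes than to Mlxipl (0.321). For the other members, the outside genes nearer than the nearest member numbered 3 for Me1, 22 for Acaca and 23 for Fasn. They numbered 164 for Acacb, 176 for Thrsp, 221 for Mlxipl and 1384 for Srebf1. Cox10 with Acacb is among the closer of these matches, and the median RMS of the outside genes to Acacb was 0.744. Cox10 stood at 386.8, 460 and 378.3 normalized counts in Atf4WT RT and at 1202, 1108 and 1168 in Atf4WT cold. In Atf4AKO it stood at 473.1, 554.6 and 408.2 at RT and at 1112, 1241 and 1405 after cold.

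The promoters of the members that rose are shown because these genes rose with cold, and the letters of their start regions can then be compared. RefSeq promoters, 250 bases before to 50 bases after a start site on GRCm38.p6, were matched for 10 of 10 members, with 14 promoters in all. Both strands were searched for TCACNCCAC (sterol response element core), CACGTG (E-box), TGATGNAA (C/EBP-ATF element core), TGACGTCA (CRE), CCAAT, the box that NF-Y binds, and GGGCGG (GC box), and matches are in capitals. Of 32851 promoters of the table, 1.24% held the sterol response element core, 7.15% the E-box, 3.97% the C/EBP-ATF core, 1.79% the CRE, 37.41% a CCAAT box and 35.66% a GC box. Among the 10 members, the sterol response element core was found in 1 (Mlxipl), the E-box in 1 (Mlxipl), the CRE in 1 (Pnpla3), the C/EBP-ATF core in 0, the CCAAT box in 9 (Acaca the exception) and the GC box in 6 (Acly, Mlxipl, Srebf1, Me1, Acss2 and Pnpla3). Counted by promoter, as the shares above are, 10 of 14 held the CCAAT box, 7 of 14 the GC box, and 1 of 14 each the sterol response element core, the E-box and the CRE. A match is a description of letters and not a bound site, and no match says only that the letters are absent from these windows. The Acaca window lies inside the annotated gene, 65766 bases from its first base. Start regions nearer the first base of Acaca were not searched.

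The Acacb promoter (chr5:114165268-114165567, plus strand) holds a CCAAT box 87 bases before the start site and lies inside the annotated gene, 18983 bases from its first base. Acacb is annotated at chr5:114146535-114250761 on the plus strand.
Acacb: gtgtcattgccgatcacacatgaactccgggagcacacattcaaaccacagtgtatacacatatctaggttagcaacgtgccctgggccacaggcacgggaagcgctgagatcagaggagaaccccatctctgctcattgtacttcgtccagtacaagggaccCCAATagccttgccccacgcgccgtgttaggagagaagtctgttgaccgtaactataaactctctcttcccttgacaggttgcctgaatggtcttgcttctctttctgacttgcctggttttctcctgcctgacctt

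Mlxipl, at chr5:135089890-135138382 on the plus strand, has promoters at start sites 17001 bases apart, at chr5:135089640-135089939 and chr5:135106641-135106940. The upstream Mlxipl promoter holds an E-box at position -98, a CCAAT box at -173 and GC boxes at -188 and -38, and the downstream promoter holds the sterol response element core TCACACCAC at -136.
Mlxipl upstream: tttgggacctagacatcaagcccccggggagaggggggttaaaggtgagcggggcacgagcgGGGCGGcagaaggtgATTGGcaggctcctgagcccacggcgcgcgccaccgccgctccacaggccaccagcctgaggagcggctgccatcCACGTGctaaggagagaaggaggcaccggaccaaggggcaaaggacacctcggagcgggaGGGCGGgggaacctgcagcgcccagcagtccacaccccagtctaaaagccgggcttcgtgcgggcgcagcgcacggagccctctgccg
Mlxipl downstream: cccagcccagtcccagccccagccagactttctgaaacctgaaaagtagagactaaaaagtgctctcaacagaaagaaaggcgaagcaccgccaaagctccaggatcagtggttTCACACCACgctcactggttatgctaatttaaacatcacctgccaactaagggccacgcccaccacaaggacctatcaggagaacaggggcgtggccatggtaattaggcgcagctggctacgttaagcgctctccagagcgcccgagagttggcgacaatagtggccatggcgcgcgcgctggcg

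Thrsp, at chr7:97412938-97417730 on the minus strand, has a promoter at chr7:97417501-97417800 with CCAAT boxes at -79 and -52, read on opposite strands. Pnpla3, at chr15:84167837-84187236 on the plus strand, has a promoter at chr15:84167566-84167865 with a CRE at -46, a CCAAT box at -99 and GC boxes at -125, -61 and 38.
Thrsp: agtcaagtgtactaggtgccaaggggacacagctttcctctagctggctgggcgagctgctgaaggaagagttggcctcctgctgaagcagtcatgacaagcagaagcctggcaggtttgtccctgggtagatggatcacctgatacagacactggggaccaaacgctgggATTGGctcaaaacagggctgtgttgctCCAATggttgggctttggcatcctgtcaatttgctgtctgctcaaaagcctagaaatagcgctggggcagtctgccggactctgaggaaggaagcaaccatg
Pnpla3: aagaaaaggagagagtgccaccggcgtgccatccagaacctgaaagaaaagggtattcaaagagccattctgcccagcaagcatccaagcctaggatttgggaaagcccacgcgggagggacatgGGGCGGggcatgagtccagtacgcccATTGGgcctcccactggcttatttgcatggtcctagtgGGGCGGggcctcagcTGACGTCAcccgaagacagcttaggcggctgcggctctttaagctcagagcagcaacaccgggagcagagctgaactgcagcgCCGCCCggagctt

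Acacb, Mlxipl and Thrsp, the members that rose in both genotypes, share no motif of the 6 searched beyond the CCAAT box, which 37.41% of all promoters hold. In Mlxipl the upstream promoter holds this box and the downstream promoter does not. Acly, Fasn, Srebf1, Me1 and Acss2, which did not pass the test in either genotype, hold a CCAAT box in a promoter as well.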

How the data were processed

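PolyA RNA of iWAT from 12 libraries (4 groups, 3 replicates) was sequenced. The deposited signal is a normalized count: the authors filtered reads (SOAPnuke), mapped them to mm10 (STAR), counted unique reads per gene (featureCounts) and divided by DESeq2 size factors (pyDESeq2). All values (100%, tolerance 0.01) divide into whole reads, which the count tests used. Genes with a mean of at least 10 were tested on log2(normalized count + 1) with limma 3.58.1 (trend, R 4.3.3) in 1 model of the 4 groups, with Benjamini-Hochberg adjustment over 13404 genes. edgeR 4.0.16 and DESeq2 1.42.0 were alternatives, with other pseudocounts, filters, scaling, a 2-group model, a replicate block, a lymphocyte score, and each library left out. Leaving out 2 RT libraries numbered 2, or 3 libraries with muscle transcripts, was chosen after seeing the data. The tests were tried on a simulated Atf4WT cold response. limma recovered 42 of 100 genes changed 2-fold and 89 of 99 changed 3-fold, with 3 false calls. edgeR recovered 43 of 100 and 88 of 99, with 3 false calls. DESeq2 recovered 53 of 100 and 92 of 100, with 42 false calls. A gene that was not called may therefore still have changed 2-fold. The members and lists (citrate and NADPH supply, malonyl-CoA handling, SREBP and ChREBP regulators, AMPK, glucose entry, palmitate use, fatty acid oxidation, thyroid hormone, relatives, and cell markers) were chosen with earlier results of these data known. Named genes were the members, Atf4, Ucp1, up to 4 genes of each list with the smallest p in the Atf4WT cold response, all genes of lists of up to 3, the most abundant gene of each marker list, markers not listed, and the nearest gene of each member. Others are said to be named after their values were seen. Figures used Python 3.11.15 and matplotlib 3.10.9.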

Additional observations from a re-analysis of the deposited data

How the results depend on the processing

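The 95 results recomputed under up to 24 alternatives included some not printed above, those of Hadha, Ehhadh and Acss1. The 95 results gave 2276 values: 2145 kept direction and side of the threshold, 86 lost the call, 14 gained it and 31 reversed, of which 0 had passed the test. The cause was not tested for any of these. Member counts were 3 in Atf4WT cold except 2 with the lymphocyte score (without Mlxipl) and 2 without the 3 muscle libraries (without Thrsp), and 4 in Atf4AKO cold or 3 without Thrsp. In the genotype comparisons and the difference 0 members were called in any alternative. The 2-group model gives no difference of cold responses, and a filter at a mean of 50 dropped the 2 results of Me3. The Atf4 call after cold was lost in the 2-group model (adjusted p = 0.0598) and with the lymphocyte score (0.249). Depth of 25719476 to 29105147 reads limits no member, and 3 replicates a group limit the precision.

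All genes called in Atf4WT cold were 4273, and 1793 with the lymphocyte score. In Atf4AKO cold they were 3467, with 2219 without the muscle libraries and 2208 to 3556 when 1 library was left out. For genotype at cold they were 4, and 0 in the 2-group model, 189 with the replicate block, 0 with the lymphocyte score, 591 in DESeq2, 77 without the RT libraries numbered 2, 485 without the muscle libraries, and 2 to 515 with 1 library left out. For genotype at RT they were 1, and 2 with pseudocount 5, 2 in the 2-group model, 3 with the replicate block, 2 with the lymphocyte score, 4 in DESeq2, 2 without the RT libraries numbered 2, 3 without the muscle libraries, and 1 to 3 with 1 library left out. For the difference they were 0, and 128 in DESeq2, 270 without the muscle libraries and 0 to 64 with 1 library left out. With the replicate block the member counts were 3, 4, 0, 0 and 0, against 4858, 4129, 189, 3 and 0 of all genes. Libraries of the same number correlated at -0.189 to 0.389 (8 of 18 pairs above 0.1), and those of different numbers at -0.475 to 0.312 (9 of 36). The replicate 1 libraries correlated with each other at 0.179 to 0.389. The numbers were not used as pairs in the main fit, and whether they mark a shared origin was not tested.

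Member estimates outside the 95 results also changed sign and are not all listed. With the lymphocyte score 2 of the 10 genotype estimates after cold were above 0, with -0.69 for Acly and -0.60 for Me1. Without the muscle libraries 7 of the 10 genotype estimates at RT were above 0. Among the 95 results, the reversed log2 fold changes, none of which had passed, were as follows. For Acaca, Atf4WT cold gave -0.21 without the RT libraries numbered 2, -0.27 without the muscle libraries and -0.21 to 0.30 with 1 library left out, and Atf4AKO cold gave 0.20 without the muscle libraries and -0.33 to 0.20 with 1 left out. Acly gave 0.28 in the difference without the muscle libraries and -0.80 to 0.12 with 1 left out. Acss2 gave 0.27 in Atf4WT cold with the lymphocyte score and -0.72 to 0.0179 in Atf4AKO cold with 1 left out. Pnpla3 at RT between genotypes gave 0.04 without the muscle libraries and -0.28 to 0.04 with 1 left out. Thrsp between genotypes after cold gave -0.0194 with 75th percentile scaling, -0.75 with the lymphocyte score and -0.0643 to 0.10 with 1 left out. Slc25a1 gave -0.0273 in Atf4WT cold and 0.11 in Atf4AKO cold without the muscle libraries, and -0.20 to 0.11 in Atf4AKO cold with 1 left out. Thrb in Atf4WT cold gave -0.0486 without the muscle libraries. Acss1 in Atf4AKO cold gave -0.0144 with 75th percentile scaling, -0.0078 without the RT libraries numbered 2, -0.11 without the muscle libraries and -0.11 to 0.24 with 1 left out. Me3 in Atf4WT cold gave -0.40 with the lymphocyte score.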
